A study of Mus musculus with 2 samples.

Results

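The potassium channel genes described here are the 91 protein-coding genes of GENCODE M21 on mouse chromosomes 1 to 19 whose names begin with Kcn, apart from 1 that is not analysed here, of 20807 protein-coding genes on these chromosomes. They lie on 18 chromosomes. A cardiac list of 10 of them (Kcnh2, Kcnj2, Kcnj3, Kcnj5, Kcnj11, Kcnd2, Kcnd3, Kcne1, Kcnip2 and Kcnk3) was set against the other 81. The rule takes genes by name, and 2 further Kcn genes on the X chromosome were left out. ChIP-seq (sequencing of chromatin pulled down by an antibody) with an antibody to CTCF was done on whole hearts from the B6NCrl mouse strain, taken at postnatal day 0. The study has 1 group of 2 libraries. Both carry 1 tissue sample and 1 donor identifier, so their spread may be technical, and sex was not collected. No second condition was compared, and genes are not replicates, so no test was made. The measurements are peak lists, which hold neither read depth nor expression: the counting error behind each signal is therefore unknown, and the tissue label could not be checked against marker genes.

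Potassium channels let potassium ions leave the cell and so end the action potential and hold the resting potential. In heart muscle, transient outward and delayed rectifier currents repolarise the cell, inward rectifiers set its resting potential, and a channel gated by ATP ties it to metabolism. CTCF is a zinc finger protein that binds a long, directional DNA motif and halts the cohesin complex, so that loops tend to form between sites whose motifs face each other. It also binds near many gene starts.

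A peak's summit is its point of highest signal, and its signal is the authors' enrichment value, used only to rank and describe peaks. Values of replicate 1 and replicate 2 come from each library's own relaxed list, which is far longer than the optimal list, at a summit within 100 bp. The pooled signal comes from the list of both libraries together, filtered by the irreproducible discovery rate (IDR) and called optimal by the authors. It is about the sum of the 2 replicate values. Genes were placed by the 5' end of their gene record, and positions are on mm10. In whole heart, a strong peak in some cells and a weaker peak in all of them cannot be told apart.

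The sequence under a summit was searched for the CTCF core consensus of 14 bases on both strands, within 50 bp of the summit, with at most 2 mismatches. All 8 cores found within 10 kb of cardiac genes are shown, since they let the sites of these genes be compared letter by letter. Each is written 5′ to 3′ on the strand of the core, with the core in capitals and 8 flanking bases on each side in lower case. Distances on these lines, here and below, are those of the peak's summit, which can lie outside the bases shown. All sequences are from the GRCm38 genome of RefSeq, the assembly of mm10.
Kcnh2, 9404 bp upstream, chr5:24361028-24361057, plus strand: cacaacggCAGCTAGAGGGCGCccaaggcc
Kcnh2, 6088 bp upstream, chr5:24357679-24357708, minus strand: cacagtgtCCAGAAGAGGGCCCccgtcttg
Kcnd2, 1499 bp upstream, chr6:21213995-21214024, minus strand: aaccatggCCACTAGATGGCGGgagtggcg
Kcnip2, 161 bp downstream, chr19:45815868-45815897, minus strand: tcgctgcgCCGCCAGGGGGCACtgtgtgag
Kcnip2, 2615 bp downstream, chr19:45813439-45813468, plus strand: ctctttggCCACACGGGGGCGCtccatccc
Kcnj5, 6189 bp upstream, chr9:32350524-32350553, minus strand: ttttgcggCCACGAGATGGCGCcattggca
Kcnj11, 44 bp upstream, chr7:46100794-46100823, plus strand: agcctccgCCGCCAGAGGGCGCcagatcgg
Kcnj11, 4479 bp downstream, chr7:46096265-46096294, plus strand: ctctgtggCCAGCAGGTGGCACcataaccc

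The cores of Kcnd2 and of the downstream Kcnj11 site had 0 mismatches, those of Kcnj5, of the upstream Kcnj11 site and of the Kcnip2 site nearest the gene start had 1, and the other 3 had 2. Under the main peaks of Kcnj2 and Kcnd3 the closest match had 3 mismatches, over the limit, and these 2 sites are therefore counted as without a core.
Kcnj2, 1346 bp upstream, chr11:111064805-111064834, minus strand: gcacttggCCCCTAGGAGGTGCtggtgaaa
Kcnd3, 1554 bp upstream, chr3:105450763-105450792, plus strand: agggttggCCAGGGAGTGGCAGtgttgtta

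Among the other Kcn genes, the cores below lie under the strongest peaks within 10 kb of a gene start or under the strongest peaks at a gene start.
Kcnma1, 6014 bp downstream, chr14:24008457-24008486, minus strand: agaagacgCCACCAGAGGACGCcacatcac
Kcna2, 6958 bp upstream, chr3:107094173-107094202, plus strand: ctacatggCCACTAGGTGGTGCtgtaggat
Kcnc4, 7227 bp upstream, chr3:107466761-107466790, minus strand: acgagcagCCACCAGGTGGCAGgaatccct
Kcnc4, 2801 bp upstream, chr3:107462339-107462368, minus strand: tcccagcaCCACTAGGGGGCAGcaccctcc
Kcnn1, 6442 bp upstream, chr8:70869688-70869717, minus strand: gtgtctgcCCACTAGGTGGCAAcagagacc
Kcnh1, 74 bp upstream, chr1:192190721-192190750, plus strand: atgcgcgcACGGTAGGGGGCGCcctggacc
Kcnk13, 57 bp upstream, chr12:99964442-99964471, minus strand: ctctcaggCCAGAAGAGGGCGCtgcgtgcc
Kcna7, 408 bp upstream, chr7:45405221-45405250, plus strand: ccatccggCCGGCAGAGGGCGCgcgagatc

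CTCF summits lay nearer to the genes of the cardiac list than to the other Kcn genes, and the lists stood furthest apart within 10 kb. The cardiac list was set by name and not by expression, so the other 81 may also hold genes active in heart. The contrast is therefore between these lists as set, and not between channel genes active and inactive in heart. An optimal summit lay within 10 kb of 9 of 10 cardiac genes (90%, 95% exact binomial interval 55.5 to 99.7), against 44 of 81 other Kcn genes (54.3%, interval 42.9 to 65.4). Over all 91 the count was 53 (58.2%), where 51.9% of all protein-coding genes had such a summit, so the family as a whole stood close to the background. The strongest peaks of the replicates, cut at the length of the optimal list (44533 peaks), gave 85% ± 7.07 of cardiac genes and 54.3% ± 1.75 of other Kcn genes (SD, n = 2 libraries). The cardiac genes were not the same as in the optimal list. Kcnk3 lay 13.4 kb from a summit in both cut lists, while Kcne1 entered in that of replicate 2, at 2.11 kb. The gap between the lists was 35.7 percentage points. The SDs are between 2 libraries and do not measure the spread over genes, so they cannot gauge that gap. The lists differ in size, and the intervals, which cover counting error only, overlap.

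Within 1 kb the picture was less firm. A summit lay there at 4 of 10 cardiac genes (40%, interval 12.2 to 73.8), against 14 of 81 other Kcn genes (17.3%, interval 9.78 to 27.3). Over all 91 the count was 18 (19.8%), and 21.9% of all protein-coding genes had one. The 4 cardiac genes were Kcnh2, Kcnip2, Kcnj2 and Kcnj11. Only Kcnj11 had a summit within 1 kb in the cut lists of both libraries: replicate 1 gave Kcnip2 and Kcnj11, and replicate 2 gave Kcnh2, Kcnj2 and Kcnj11. The replicates' own lists gave 25% ± 7.07 of cardiac genes and 17.3% ± 1.75 of other Kcn genes (SD, n = 2 libraries), a smaller gap than that of the pooled list. In the conservative list the counts were 2 of 10 cardiac genes and 16 of 81 other Kcn genes, and the gap between the lists fell to 0.247 percentage points.

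Within 100 kb nearly every gene had a summit: 10 of 10 cardiac genes and 79 of 81 other Kcn genes (97.5%). Over all 91 the share was 97.8%, where the background was 90.1%. The median number of summits in that window was 8 for cardiac genes, 6 for other Kcn genes and 6 for all protein-coding genes.

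**Figure D1:**
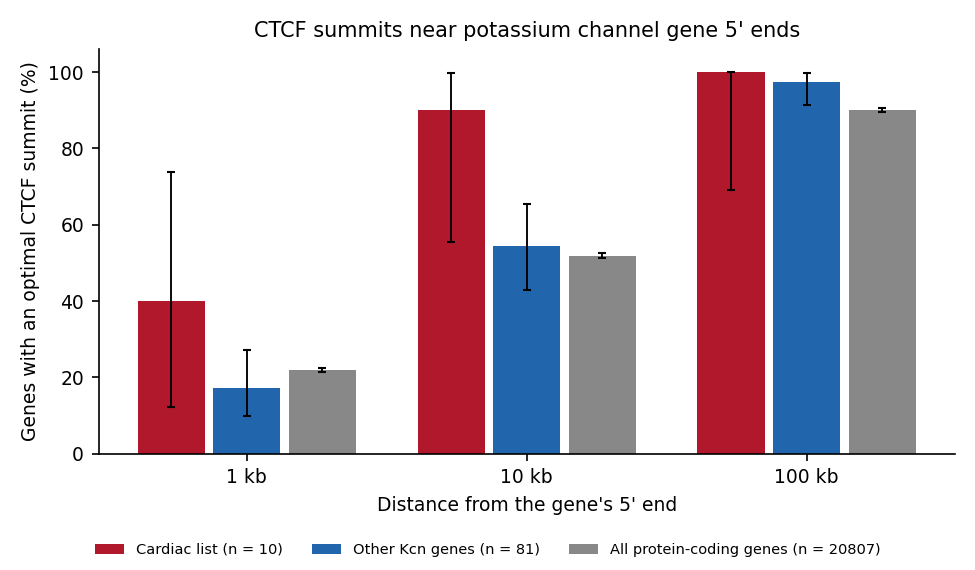
Percent of genes with an optimal CTCF summit within 1, 10 and 100 kb of the 5' end, for the cardiac list (10 genes), the other Kcn genes (81) and all protein-coding genes (20807); lines are 95% exact binomial intervals, which cover counting error only. The cardiac bar stands at 90% within 10 kb beside 54.3% for the other Kcn genes and 51.9% for all genes, and the 3 bars are nearly level within 100 kb.

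The median distance from the 5' end to the nearest summit was 1.53 kb for cardiac genes (quartiles 0.275 and 3.52 kb), 9.26 kb for other Kcn genes (2.80 and 27.9 kb) and 9.03 kb for all protein-coding genes (1.48 and 28.3 kb). In the replicates' own lists it averaged 2.34 ± 0.710 kb for cardiac genes and 9.20 ± 0.767 kb for other Kcn genes (SD, n = 2 libraries). Kcn genes as a group are longer than most, with a median length of 30.8 kb in the cardiac list and 32.3 kb in the others, against 17.6 kb over all genes. They also have fewer neighbours, counted as the 5' ends of other genes, coding or non-coding, within 100 kb. The median was 4 for both lists, against 7 for all protein-coding genes. Among genes with at most 5 such neighbours, a summit within 10 kb was found for 5 of 5 cardiac genes, 25 of 51 other Kcn genes (49.0%) and 49.0% of all genes. With 6 to 11 neighbours the counts were 3 of 4 cardiac genes and 12 of 20 other Kcn genes, beside 50.7% of all genes. Of genes under 20 kb long, 2 of 3 cardiac ones and 18 of 33 others (54.5%) had such a summit, beside 50.8% of all genes. Of genes over 100 kb long, 3 of 3 cardiac ones had such a summit, against 12 of 19 others (63.2%) and 53.1% of all genes of that length.

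By channel family, the median distance to the nearest summit was shortest for the 8 calcium- or sodium-activated channels (5.41 kb) and the 38 voltage-gated pore subunits (6.18 kb). It was 7.12 kb for the 14 tandem-pore channels (names in Kcnk), 12.4 kb for the 15 inward rectifiers (Kcnj) and 14.2 kb for the 16 accessory subunits. Within 10 kb a summit was found for 6 of 8 activated channels, 25 of 38 voltage-gated, 9 of 14 tandem-pore, 7 of 15 inward rectifier and 6 of 16 accessory genes (37.5%), beside 51.9% of all protein-coding genes. Each family spans a wide range: the accessory genes run from Kcnip4, 4 bp from a summit, to Kcnab1 at 111.1 kb. The Kcnip4 summit was absent from the conservative list and from the cut list of replicate 2, where the nearest lay at 154.0 kb.

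**Figure D2:**
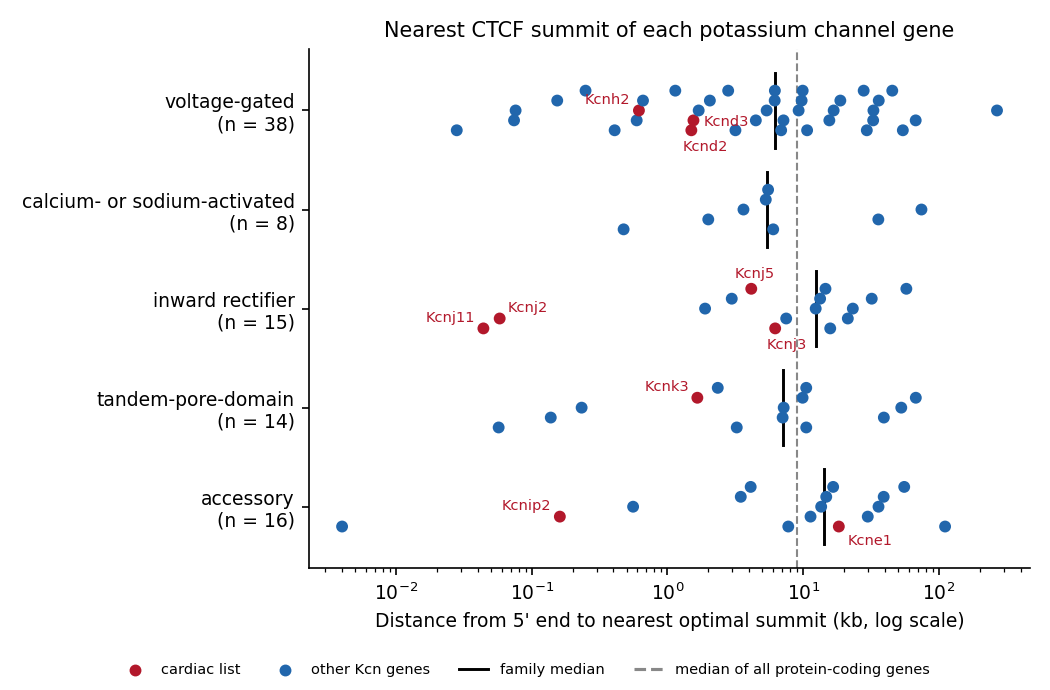
Distance in kb (log axis) from the 5' end of each of the 91 Kcn genes to the nearest optimal summit, by channel family, with cardiac genes in red and named, other genes in blue, the family median as a black bar and the median of all protein-coding genes (9.03 kb) as a dashed line. Of the 10 cardiac genes, Kcne1 alone lies to the right of the dashed line, at 18.3 kb.

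At the edges of the windows, Kcnq5 at 660 bp fell inside 1 kb and Kcng3 at 1142 bp outside. Kcnv2 at 9916 bp fell inside 10 kb and Kcnk16 at 10530 bp outside. Kcnt2 at 74.4 kb fell inside 100 kb and Kcnab1 outside.

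Of the voltage-gated cardiac genes, Kcnh2 had the strongest CTCF peak within 10 kb of any Kcn gene. It encodes the pore subunit of the rapid delayed rectifier, the channel blocked by many drugs that lengthen the QT interval, and lies at chr5:24319589-24351604 on the minus strand. A peak 9404 bp upstream of its 5' end had a pooled signal of 299, with 158 in replicate 1 and 143 in replicate 2, and was stronger than 99.7% of optimal peaks. The 5' end nearest to that peak was not that of Kcnh2 but that of Nos3, the endothelial nitric oxide synthase, at 3802 bp. A second peak, 6088 bp upstream, had a pooled signal of 156.5 (92.4 in replicate 1 and 63.9 in replicate 2). The cores of these 2 peaks lie on opposite strands. The summits nearest the gene start were weak: that 616 bp downstream had a pooled signal of 18.3 (8.16 and 9.69 in replicates 1 and 2), and that 1031 bp upstream had 15.4 (4.45 and 10.5). Only 11.2% and 6.13% of optimal peaks were weaker than these, and neither had a core.

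Kcnd2 and Kcnd3 encode the pore subunits of the fast transient outward current, which gives early repolarisation. Each had 1 summit within 10 kb, at nearly the same distance upstream. That of Kcnd2 (chr6:21215503-21729805, plus strand), 1499 bp upstream between genes, had a pooled signal of 134 (72.3 in replicate 1 and 63.6 in replicate 2) and a core with 0 mismatches. It was the only summit within 100 kb of that 5' end. That of Kcnd3 (chr3:105452330-105674002, plus strand), 1554 bp upstream in an intron of its antisense gene Kcnd3os, had a pooled signal of 67.9 (36.2 and 30.9 in replicates 1 and 2) and no core. Kcnd3 had 6 summits within 100 kb.

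Kcnip2 and Kcne1 encode accessory subunits. Kcnip2, the calcium-binding partner that carries Kcnd channels to the cell surface, lies at chr19:45791839-45816061 on the minus strand. Its stronger peak, in its own intron 2615 bp downstream of the 5' end, had a pooled signal of 147 (81.7 in replicate 1 and 66.0 in replicate 2). The summit 161 bp downstream had only 25.3, with 16.8 in replicate 1 and 3.98 in replicate 2. That peak was not in the conservative list, the shorter of the authors' filtered lists, and it held a core with 1 mismatch.

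Kcne1, at chr16:92345982-92359468 on the minus strand, encodes a partner of the slow delayed rectifier and was the only cardiac gene without an optimal summit within 10 kb. The nearest was 18.3 kb downstream, past the end of the gene, with a pooled signal of 148 (82.6 in replicate 1 and 64.3 in replicate 2). The region was still dense in CTCF, with 19 optimal summits within 100 kb. The relaxed pooled list held a peak 2.12 kb downstream of the 5' end with a signal of 15.8 (6.48 and 8.33 in replicates 1 and 2). The conservative list holds that peak although the optimal list does not, and with it all 10 cardiac genes had a summit within 10 kb.

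The inward rectifiers of the cardiac list differed widely. Kcnj11 encodes the pore of the ATP-sensitive channel (chr7:46093953-46100764, minus strand) and was the only cardiac gene with a strong peak at its start. The summit 44 bp upstream had a pooled signal of 127 (62.9 in replicate 1 and 65.6 in replicate 2). A stronger one, 4479 bp downstream in its intron, had 213 (109 and 101 in replicates 1 and 2). Their cores both point against the direction of the gene and bracket its 5' end within 4.52 kb. Another, weak peak 7098 bp upstream, with a pooled signal of 17.4 and 8.37 ± 3.72 over the replicates (SD, n = 2 libraries), fell in an exon of Abcc8, the neighbouring gene for the sulphonylurea receptor that joins the product of Kcnj11 in the channel of pancreatic beta cells. Abcc8 had its own summit 1.78 kb from its 5' end with a pooled signal of 221 (114 in replicate 1 and 107 in replicate 2).

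Kcnj2 encodes the main pore of the inward rectifier current that holds the resting potential (chr11:111066164-111076821, plus strand). The summit 58 bp downstream of its 5' end had a pooled signal of 15.3, with 11.5 in replicate 2 and no peak in replicate 1. The peak 1346 bp upstream was strong in both libraries, with a pooled signal of 129 (64.1 in replicate 1 and 61.9 in replicate 2). It had no core within the mismatch limit, although 75.2% of optimal peaks were weaker.

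Kcnj3 and Kcnj5 encode the subunits of the atrial channel opened by acetylcholine through G proteins. Kcnj3 (chr2:55435970-55598145, plus strand) had a single summit within 100 kb, in its own intron 6218 bp downstream, with a pooled signal of 27.2 (17.5 in replicate 1 and 10.1 in replicate 2) and no core. Kcnj5 (chr9:32314707-32344350, minus strand) had a strong peak 6189 bp upstream, in an intron of the long non-coding RNA gene Gm39317, with a pooled signal of 172 (96.6 and 76.0 in replicates 1 and 2). Its nearest summit, 4144 bp downstream, had 17.8 pooled and 12.4 in replicate 1, with no peak in replicate 2.

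Kcnk3 encodes an acid-sensitive background channel (chr5:30588170-30625271, plus strand). Its 1 summit within 10 kb, 1660 bp downstream in its own intron, had a pooled signal of 13.2 (6.61 in replicate 1 and 6.37 in replicate 2), the lowest of the 17 cardiac peaks. It was too weak to enter either library's own cut list, where the nearest summit lay at 13.4 kb.

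**Figure D3:**
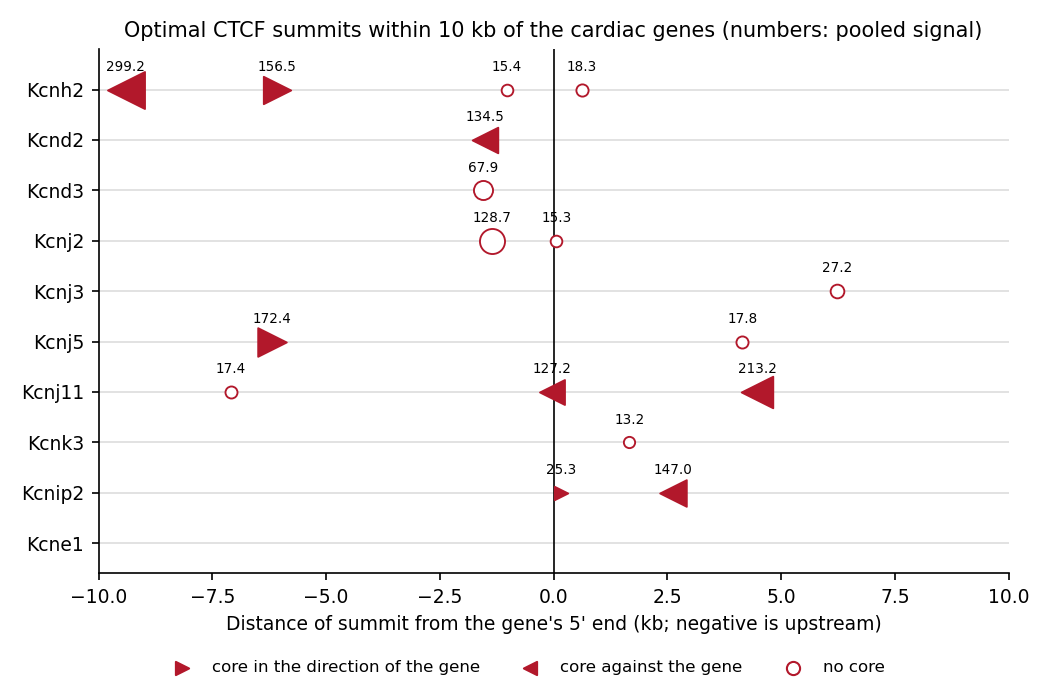
Optimal peaks within 10 kb of the 5' ends of the 10 cardiac genes, at their signed distance from the 5' end in kb (upstream to the left, along each gene's own direction), with marker size and labels giving pooled signal and marker shape giving the core. Large peaks sit upstream of Kcnh2, Kcnj5, Kcnj2 and Kcnd2 and inside Kcnj11 and Kcnip2, and the row of Kcne1 is empty.

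Strong promoter peaks were few. A peak at or above the median signal of the optimal list (60.8) lay within 1 kb of 1 of 10 cardiac genes, Kcnj11, and 4 of 81 other Kcn genes, Kcna7, Kcng2, Kcnh1 and Kcnk13. That makes 5 of 91 (5.49%), where 9.3% of all protein-coding genes had one. The 20 peaks within 1 kb of a Kcn gene had a median signal of 21.4, against 42.9 for the peaks within 1 kb of all protein-coding genes. Within 10 kb the counts were 7 of 10 cardiac genes and 27 of 81 others (33.3%), or 34 of 91 in all (37.4%), beside 32.4% of all genes.

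At Kcnh1, which encodes the ether-à-go-go pore subunit found mostly in brain, the summit 74 bp upstream had a pooled signal of 179 (102 in replicate 1 and 79.3 in replicate 2). A second peak 1549 bp upstream had 134 (68.6 and 65.2). Kcnk13, a tandem-pore channel gene, had 152 (79.4 and 74.3 in replicates 1 and 2) at 57 bp upstream. Kcng2, a subunit that modifies other voltage-gated channels, had 150.5 (78.3 and 73.0) at 498 bp downstream. Kcna7 had 149 (83.4 and 63.3) at 408 bp upstream. In each of these genes both libraries held the peak.

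The 100 bases upstream of 3 gene starts are shown, since the core itself lies in them. They are written 5′ to 3′ along the gene, so that the last base adjoins the 5' end, with the core in capitals on whichever strand it is read. The cores of Kcnj11 and Kcnk13 lie on the strand opposite to the gene, so the reverse complement of the core appears, while that of Kcnh1 reads with the gene.
Kcnj11, chr7:46100765-46100864, minus strand: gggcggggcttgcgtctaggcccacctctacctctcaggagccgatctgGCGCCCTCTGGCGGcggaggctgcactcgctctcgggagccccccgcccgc
Kcnh1, chr1:192190674-192190773, plus strand: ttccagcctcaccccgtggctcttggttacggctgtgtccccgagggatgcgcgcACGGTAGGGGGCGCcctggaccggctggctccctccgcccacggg
Kcnk13, chr12:99964399-99964498, plus strand: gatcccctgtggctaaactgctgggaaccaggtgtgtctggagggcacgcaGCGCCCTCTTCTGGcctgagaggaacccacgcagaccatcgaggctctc

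A core with at most 2 mismatches lay in the 100 bases upstream of 9 of 91 Kcn genes (9.89%), against 1372 of 20807 protein-coding genes (6.59%). A match in this window is a description of the letters and does not mark a bound site.

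The other Kcn genes with a summit within 1 kb had weaker peaks. Kcnf1, a subunit gene of the voltage-gated family, had a pooled signal of 38.2, Kcnk15 had 28.5, Kcnn2 had 19.4, Kcnq5 had 17.5 and Kcnk12 had 16.8. Below these stood Kcnip4 at 14.5, Kcnip1 at 13.5, Kcnv1 at 11.5 and Kcnb2 at 11.1, and the Kcnip1 peak was missing in replicate 1. The peaks of Kcnn2, Kcnip4, Kcnip1 and Kcnv1 were not in the conservative list. In the cut list of replicate 2 the nearest summit lay at 24.6 kb for Kcnn2 and 63.7 kb for Kcnv1. For Kcnb2 it lay at 40.3 kb in that of replicate 1 and 279.4 kb in that of replicate 2. These are pooled signals, each below the list median.

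The strongest peaks within 10 kb of other Kcn genes lay mostly a few kb away from the start. Kcnma1, the large-conductance channel opened by calcium and voltage, had a pooled signal of 223.5 (120 in replicate 1 and 103 in replicate 2) in its own intron 6014 bp downstream. Kcna2, a neuronal delayed rectifier gene, had 218 (110 and 105) at 6958 bp upstream, at the start of the gene Gm27008. Kcnc4, of a fast-gating neuronal family, had 2 peaks of that size, 212.7 (110 and 102) at 7227 bp and 204.7 (104 and 96.5) at 2801 bp upstream, both with 0 mismatches in the core. Kcnn1, a small-conductance calcium-activated channel gene, had 194 (96.9 and 94.7) at 6442 bp upstream, in an intron of Ccdc124.

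Kcne2, an accessory subunit gene beside Kcne1 on chromosome 16, had 169 (97.0 in replicate 1 and 70.8 in replicate 2) at 5583 bp upstream. That same peak lies 72.7 kb downstream of the Kcne1 start. Kcnc1 had 164 (80.9 and 82.1) at 3168 bp upstream, and Kcnn4, the intermediate-conductance channel gene, had 160 (75.7 and 86.1) at 5301 bp upstream. In 46 of the 53 genes with a summit within 10 kb, the strongest such peak had that gene's 5' end as its nearest coding one, with 8 of 9 in the cardiac list and 38 of 44 in the others. The 1 cardiac exception was Kcnh2. These counts were not set beside a share over all protein-coding genes, so they are not read as a trait of Kcn genes.

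A single peak was shared between 2 Kcn genes. It had a pooled signal of 38.8 (21.0 in replicate 1 and 15.0 in replicate 2) and lay 4396 bp upstream of Kcnj9 and 7496 bp upstream of Kcnj10, which encode a neuronal G protein-gated subunit and the main glial inward rectifier. Counting it once, 85 optimal peaks lay within 10 kb of a Kcn gene, in 86 gene and peak pairs.

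Of the 85 peaks, 62 held a core (72.9%, interval 62.2 to 82.0), against 66.2% of the peaks within 10 kb of all protein-coding genes and 73.5% of all optimal peaks. The cardiac list had 8 of 17 (47.1%, interval 23.0 to 72.2) and the other Kcn genes 54 of 68 (79.4%, interval 67.9 to 88.3). Most cardiac peaks without a core, among them the main peaks of Kcnj2 and Kcnd3, had 3 mismatches, just over the limit. A smaller part of the other Kcn peaks without a core did. The size of the gap between the lists thus depends on that limit, for which shares were recomputed only over all Kcn genes together. Peaks with a core had a median signal of 90.5 and those without one 18.3. By median signal the lists were near each other and near the whole: 67.9 for the cardiac peaks, 58.2 for the other Kcn peaks and 60.8 for all optimal peaks. Within 100 kb of a Kcn gene there were 576 peaks, of which 77.4% held a core.

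Cardiac peaks fell in promoters in 4 cases, in introns in 7, in a non-coding exon in 1 and between genes in 5. The 68 peaks of other Kcn genes fell in promoters in 23 cases, in coding exons in 4, in another exon in 1, in introns in 19 and between genes in 21. A promoter here means within 1000 bp of the 5' end of any gene. Places were not counted for the peaks near all protein-coding genes, so these counts are not read as a trait of either list.

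Near Kcn genes, peaks upstream of the 5' end had a higher median signal than those downstream. Of the 86 pairs, 52 were upstream (60.5%, against 54.0% over all protein-coding genes), with a median signal of 76.2 upstream and 36.4 downstream. These medians were not taken over all protein-coding genes, so whether the difference is particular to Kcn genes was not tested. In the cardiac list the 9 upstream peaks had a median of 129 and the 8 downstream peaks 21.8. The cores of Kcn genes more often read in the gene's own direction, on both sides: 30 of 41 upstream (73.2%) and 15 of 22 downstream (68.2%), against 52.5% and 52.0% over all protein-coding genes. The other Kcn genes had 28 of 36 upstream (77.8%) and 14 of 19 downstream (73.7%). In the cardiac list the core read with the gene in 2 of 5 upstream peaks and 1 of 3 downstream.

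Each gene start was also placed between the nearest peak with a core on its left and that on its right. Facing cores, the arrangement of CTCF loop anchors, enclosed 3 of 10 cardiac genes and 29 of 81 other Kcn genes (35.8%), or 32 of 91 (35.2%), where 30% of all protein-coding genes were so enclosed. The 3 cardiac genes were Kcnh2, Kcnj3 and Kcnj5. The interval for Kcnh2 was 21.6 kb, between a peak of 156.5 upstream and one of 211 downstream. For Kcnj5 it was 26.0 kb, between 172 upstream and 15.5 downstream. That for Kcnj3 was 535 kb, between 82.8 upstream and 75.5 downstream. Cores pointing the same way flanked the other cardiac genes except Kcnip2, whose flanking cores pointed apart over 12.0 kb. The median interval was 47.6 kb for cardiac genes, 74.5 kb for other Kcn genes and 75.3 kb for all genes. Peak lists hold no contacts, so whether any pair forms a loop was not tested.

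Inside the gene bodies, 9 of 10 cardiac genes and 45 of 81 other Kcn genes (55.6%) held a summit, or 54 of 91 (59.3%), where 47.3% of all protein-coding genes did. Per 100 kb of gene there were 1.90 summits in cardiac genes, 1.29 in other Kcn genes and 2.36 over all genes, so the higher count of genes with a summit went with greater length and a lower density. Kcnma1 held the most, with 11. Kcnip4, Kcnq5 and Kcnip1 held 7 each, and Kcnip4 is 1135 kb long.

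By summits around the 5' end, Kcna7 had the most within 100 kb with 21, followed by Kcnab3 with 20, Kcne1 with 19 and Kcnn1 with 17, and by Kcnh2, Kcnj9 and Kcnj10 with 16 each. At the other end, Kcnh7, which encodes a relative of Kcnh2 found in the nervous system, lay 268.1 kb from its nearest summit, and Kcnab1, a beta subunit gene, 111.1 kb.

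The interval between Kcnj2 and Sox9 is known for a boundary that separates the domains of the channel gene and of the cartilage and testis regulator. The 5' ends lie 1.72 Mb apart on chromosome 11, and 10 optimal summits fell between them. That is 5.83 per Mb, against 26.7 per Mb over the chromosome. The chromosome value was not matched for the density of genes, so the low number is not read as particular to this interval. A tight group of 4 strong peaks stood at 457.5 to 471.7 kb from Kcnj2, with cores that change direction inside the group, and their sequences are shown for that reason.
Site 457.5 kb from Kcnj2, chr11:111523662-111523691, minus strand: tggtttggCCAACAGGTGGCGCcattgtgc
Site 466.5 kb from Kcnj2, chr11:111532646-111532675, minus strand: ccatgtgaCCACTAGATGGCAGagtagtgt
Site 470.1 kb from Kcnj2, chr11:111536213-111536242, plus strand: gttgtctaCCGCCAGATGGCAGcatgcaca
Site 471.7 kb from Kcnj2, chr11:111537834-111537863, plus strand: acatgttaCCAGCAGGTGGCAGtccagtag

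The pooled signals of these 4 sites, from the Kcnj2 side, were 152, 129, 155 and 166. Replicate 1 gave 85.2, 61.5, 91.3 and 81.4, and replicate 2 gave 66.9, 67.4, 64.2 and 85.7 in the same order. The 2 sites nearer Kcnj2 point back to it and the 2 nearer Sox9 point to Sox9, so that the pairs point apart. Beyond them, a minus strand core lay at 379.8 kb (92.3 pooled) and a plus strand core at 586.9 kb (116). Further on came a minus strand core at 1037 kb (60.3) and a plus strand core at 1143 kb (103). The last 570 kb before Sox9 held no summit until one 2.22 kb before its 5' end, with a pooled signal of 77.3 and no core. Of the 10 summits, 9 were in the conservative list, and the 1 outside it was the weak peak at the start of Kcnj2.

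**Figure D4:**
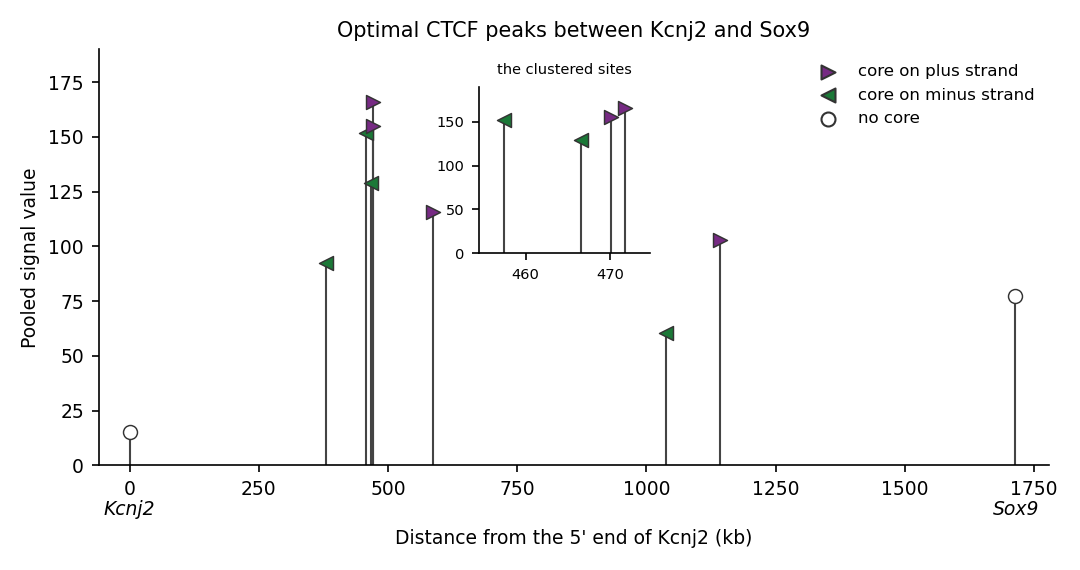
Pooled signal of the 10 optimal peaks between the 5' ends of Kcnj2 and Sox9 against distance from Kcnj2 in kb, with the inset spreading the clustered sites; triangles point in the direction of the core (plus strand to the right) and circles have none. Cores on the minus strand stand at 457.5 and 466.5 kb and cores on the plus strand at 470.1 and 471.7 kb.

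Of the Kcn genes, 38 had no optimal summit within 10 kb. A peak of the pooled relaxed list, which holds 300000 peaks and includes background, lay within 10 kb of 35 of them. The strongest for each gene had a median signal of 8.41. The highest was 28.5, at 9 bp from the start of Kcna4. The 3 without one in the pooled list were Kcna3, Kcnh7 and Kcnh8. The conservative list held a summit within 10 kb for 7 of the 38: Kcna1, Kcna4, Kcne1, Kcnj8, Kcnmb3, Kcns2 and Kcns3. The 2 filtered lists are thus not nested, and 89.4% of optimal peaks were also in the conservative one. The counts of 35 and 7 were not set beside a share over all protein-coding genes, so they are not read as a trait of these genes.

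Genes outside the Kcn names whose products assemble with or scaffold these channels were looked at as a list of 12, and 2 had a summit within 1 kb, 6 within 10 kb and 11 within 100 kb. These counts are near the shares of all protein-coding genes, 21.9%, 51.9% and 90.1%. Abcc9, which encodes the receptor subunit of the ATP-sensitive channel in heart, had a pooled signal of 57.3 (25.7 in replicate 1 and 29.5 in replicate 2) at 0.447 kb. Lrrc52 had 19.8 (9.36 and 9.33) at 0.568 kb. Within 10 kb Abcc8 had 221, Lrrc26 had 173 and Dpp10 had 40.3 as their strongest pooled signals. Lrrc26 encodes an auxiliary subunit of the Kcnma1 channel. Dpp6, Lrrc38, Lrrc55, Amigo1 and Cav3 had summits only beyond 10 kb, and Akap9, a scaffold of the slow delayed rectifier, had its nearest at 174 kb.

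The replicates ranked the peaks near Kcn genes alike. Of the 85 peaks within 10 kb, 81 had a counterpart in both libraries, and the median log2 ratio of replicate 2 to replicate 1 was −0.15. Across the 81 peaks near Kcn genes Spearman's rho was 0.94, given as a description, as peaks of 1 library share its depth and several share a gene. The peaks also come from a list filtered by IDR, which favours reproducible peaks, so this likeness is in part set by selection. Over all optimal peaks found in both libraries rho was 0.95. The 4 peaks near Kcn genes absent in 1 library had pooled signals between 13.5 and 17.8.

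**Figure D5:**
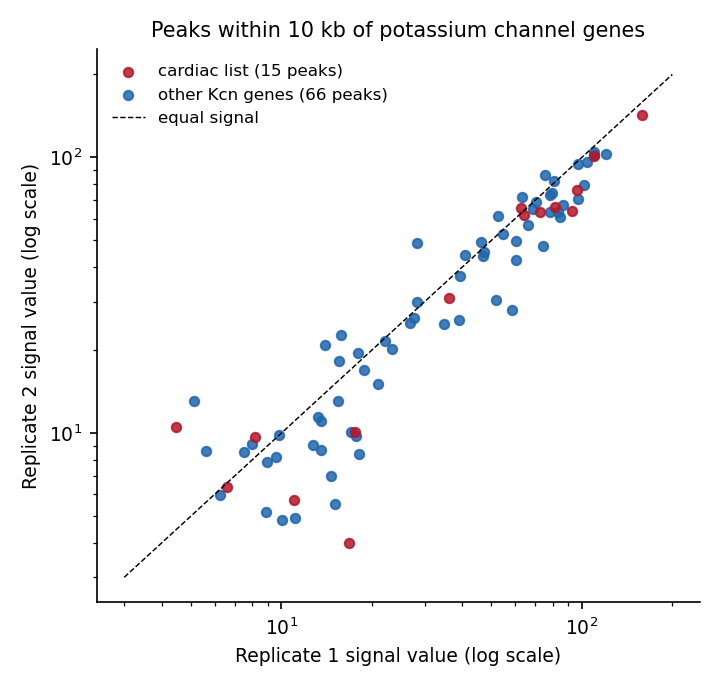
Signal of replicate 2 against that of replicate 1 (log axes) for the 81 peaks within 10 kb of a Kcn gene found in both libraries, cardiac genes in red and other Kcn genes in blue, with the line of equal signal. The points run along the line, most of them a little below it, and scatter widest at low signal.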

How the data were processed

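CTCF ChIP-seq was done on heart at postnatal day 0, in 2 libraries of 1 group. The deposited files are 5 peak lists on mm10, per the labels. Per the text files beside them, 3 relaxed lists of 300000 peaks each were called on replicate 1, on replicate 2 and on both, each against a control not used here, and the optimal (44533 peaks) and conservative (43221) lists came from these by IDR. Aligner and peak caller: not given in the sources used here, nor are their versions. The signal of each peak is the authors' own deposited value, on a scale that the labels do not state, and the deposited q-value score played no part. Each summit was taken as the start of its peak plus the deposited offset. All columns of per-sample values were used as mapped.

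From these, shares, medians, distances and core matches were computed with Python 3.11.15, numpy 2.4.6, pandas 2.3.3, scipy 1.17.1 and pysam 0.24.0, and tested on simulated data. Genes were those of GENCODE M21. Intervals on shares (exact binomial, 95%) cover counting error only. Read depth is unknown. Spreads over the 2 libraries use the 44533 strongest peaks of each. Signals of the libraries were not rescaled.

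The members, the cardiac list, the partner list and the rule for naming genes were chosen with earlier results of these data known. The rule named the 10 cardiac genes, the 10 with the strongest peak within 10 kb, the 10 strongest within 1 kb, those farthest from a summit, the 5 with the most summits within 100 kb or in the gene body, those at the edges of each window, those sharing a peak, and the partners. Any other gene named was picked with its values in view, and 2 genes that the rule takes are not reported here. Alternatives were the conservative list, peaks at or above the median signal, each replicate left out, transcript 5' ends, and other core limits.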

Additional observations from a re-analysis of the deposited data

How the results depend on the processing

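Of 155 recomputed values over 27 results, 124 stayed within 1.5 times a count or within the spread between replicates, 31 moved and 0 reversed. Some of these labels were fixed in advance. For the signals at 9 cardiac genes, each replicate was compared with the mean of both, within their own spread. All 91 nearest summits were distinct, so counting shared ones once could change no count. Only the differences between the lists could be labelled reversed. The alternatives for the differences between the lists were chosen after seeing the data. The cardiac excess within 1 kb (22.7 percentage points) is the least stable: it was 0.247 in the conservative list, 5.06 for peaks at or above the median signal, and 1.48 to 13.95 with either replicate left out. The cardiac count within 1 kb was 2 in the conservative list, 1 for strong peaks and 2 to 3 with a replicate left out. Strong peaks also gave 4 other Kcn genes and 5 of all 91 within 1 kb, and 27 and 34 within 10 kb. The excess within 10 kb (35.7 points) was 24.4 to 36.9 with a replicate left out, and that within 100 kb (2.47 points) was 2.47 to 4.94.

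Median distances to strong peaks were 4.35 kb for cardiac genes, 16.8 kb for other Kcn genes and 15.5 kb for all 91. With a replicate left out they were 1.84 to 2.84 kb for cardiac genes and 7.16 to 7.50 kb for all 91. The conservative list gave 7.73 kb for other Kcn genes and 6.88 kb for all 91, and transcript 5' ends gave 7.50 and 6.17 kb. The share of peaks with a core within 10 kb was 43.5% with at most 1 mismatch, 87.1% with at most 3, 62.4% and 78.8% when searched within 25 and 100 bp, and 73.2% to 76.5% with a replicate left out. Within 100 kb these were 44.4%, 91.5%, 69.1%, 79.9% and 77.1% to 78.9%. The cause of these moves was not tested beyond the change in the lists or limits themselves. Between Kcnj2 and Sox9, 9 to 11 summits were found with a replicate left out.

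Without read depth, the counting error on a weak peak cannot be given. No paired analysis was possible because there is 1 group.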
